A study of Mus musculus with 2 samples.

Results

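The genes described are 10 members of the interleukin-1 (IL-1) family and its receptors, taken by symbol from a list from the 32285 features that both libraries share, and all 10 were found. They comprise 5 ligands (Il1a, Il1b, Il18, Il33 and Il1f9), the antagonist Il1rn, the signaling receptors Il1r1 and Il1rl1, the shared co-receptor Il1rap and the decoy receptor Il1r2. MC38, a mouse colon carcinoma line, was grown under the skin of C57BL/6 mice of 6 to 8 weeks, and each tumor received 3 injections at intervals of 3 days. Tumors were taken on day 7, and those of 3 mice were pooled into 1 droplet-based single-cell library per condition. MSA-2, the treatment, is a nonnucleotide agonist of STING, the adaptor through which cytosolic DNA sensing starts interferon and inflammatory gene expression. The control is labelled untreated, but the series record gives it injections of a vehicle, saline with 10% DMSO, and the methods call it saline-treated. The comparison asks where the messages for ligands, decoy and receptors of this family lay in the tumor with and without the agonist. With 1 library per condition there is no measure of the spread between tumors, so no test between conditions was made, and every interval below is a 95% interval that covers counting error only.

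IL-1 alpha and IL-1 beta bind the receptor Il1r1, which then recruits Il1rap and signals through MyD88 to NF-kB, while Il1rn occupies the same receptor without signaling and Il1r2 binds ligand without a signaling tail. IL-33, an alarmin of stromal and barrier cells, uses Il1rl1 (ST2) with Il1rap, and IL-36 gamma, the product of Il1f9, uses a related receptor with the same co-receptor. In tumors IL-1 beta of myeloid cells is known to draw in neutrophils and to act on fibroblasts, and it needs cleavage before release, which RNA counts do not show.

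The untreated library held 198135335 UMIs (unique molecular identifiers, each a captured RNA molecule counted at its 3′ end) in 14386 barcodes, and the MSA-2 library held 204387165 UMIs in 14617 barcodes. The median barcode carried 8372 UMIs untreated and 8661 after MSA-2. After filters and doublet removal 13334 untreated and 13393 MSA-2 cells were left. The libraries shared 53 barcode sequences, and the largest move of a member's log2 ratio on leaving these cells out was 0.07. Levels are in CPM, that is, summed UMIs scaled to the total of the same cells. As 3′ counts do not grow with transcript length, levels of different genes are compared on this scale only.

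Cells were assigned to classes by markers that include no member of the family. Neutrophils numbered 35 untreated and 2698 after MSA-2 (0.262% and 20.1% of cells), with median depths of 1292 and 1804 UMIs. Monocytes numbered 237 and 681 cells at median depths of 3479 and 3657 UMIs. Macrophages numbered 3998 and 1296 at 5499.5 and 4493.5 UMIs, T cells 1055 and 111, NK cells 226 and 104, fibroblasts 225 and 574, and endothelial cells 64 and 77. Neutrophils, monocytes and fibroblasts were thus more numerous after MSA-2 and macrophages and lymphocytes fewer, and every all-cell value carries those shifts. Within 0.1 of a gate threshold lay 65 untreated and 59 MSA-2 macrophages, 30 and 62 monocytes, 25 and 49 fibroblasts, and 2 and 23 neutrophils. Cells between classes made up 1.82% of untreated and 1.72% of MSA-2 cells, and leukocytes without a class 3.41% and 2.93%. A bound of 10000 UMIs on neutrophils, set after the scores had been seen, kept 110 MSA-2 cells (0.821%) and 0 untreated cells apart. In those 110 cells Il1b was at 845 CPM, and whether they are doublets that Scrublet had not called was not tested.

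The largest class lay below the gate thresholds of Ptprc, the pan-leukocyte gene, and of the markers of every other class, and it is called marker-negative here: 6559 untreated and 7068 MSA-2 cells at median depths of 20070 and 19537 UMIs. The labels call the material tumor cells of MC38. Of 11 epithelial tumor markers 10 were below 1 CPM in this class in both libraries, and the exception, Tm4sf1, carried nearly all of the list's sum of 639.5 and 552 CPM. The 10 fibroblast markers summed to 2041 and 2601 CPM there against 47400 and 31018 CPM in fibroblasts, with Col3a1 (1226 CPM) most abundant untreated and Dcn (1475 CPM) after MSA-2. Cells of the same class often fell into different clusters in the 2 libraries. Macrophages lay in clusters 3 and 5 untreated and in clusters 4 and 13 after MSA-2, monocytes in 5 and then 13, fibroblasts in 11 and then 14, and marker-negative cells in 0, 1 and 2 and then in 16, 17 and 18. Neutrophils, NK cells and endothelial cells kept their clusters, numbered 15, 9 and 12.

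Over all cells, 6 of the 10 members were more than 2-fold higher in the MSA-2 library (1 CPM added to both values), where 2.98% of the 19509 genes tested were. None of the 10 was lower (0, against 2.94% of genes). The 6 were Il1a, Il33, Il1f9, Il1rn, Il1rap and Il1r2, so 3 ligands, the antagonist, the co-receptor and the decoy rose. Under a stricter cell filter (1000 genes or more, 10% mitochondrial UMIs or less) Il1r2 and Il1rn fell short of 2-fold. Their log2 ratios were 0.21 in place of 1.29 and 0.98 in place of 1.60. With 10 CPM added 5 members passed 2-fold, but the 2.98% of genes applies to 1 CPM added only. With every cell weighted equally the ratios of Il1rn, Il1rap and Il1r2 were 2.65, 2.41 and 2.38, in place of 1.60, 1.61 and 1.29. Il1rl1, at 103.5 and 162.8 CPM, Il1r1, at 16.1 and 29.0 CPM, Il18, at 14.8 and 16.7 CPM, and Il1b stayed within 2-fold.

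**Figure D1:**
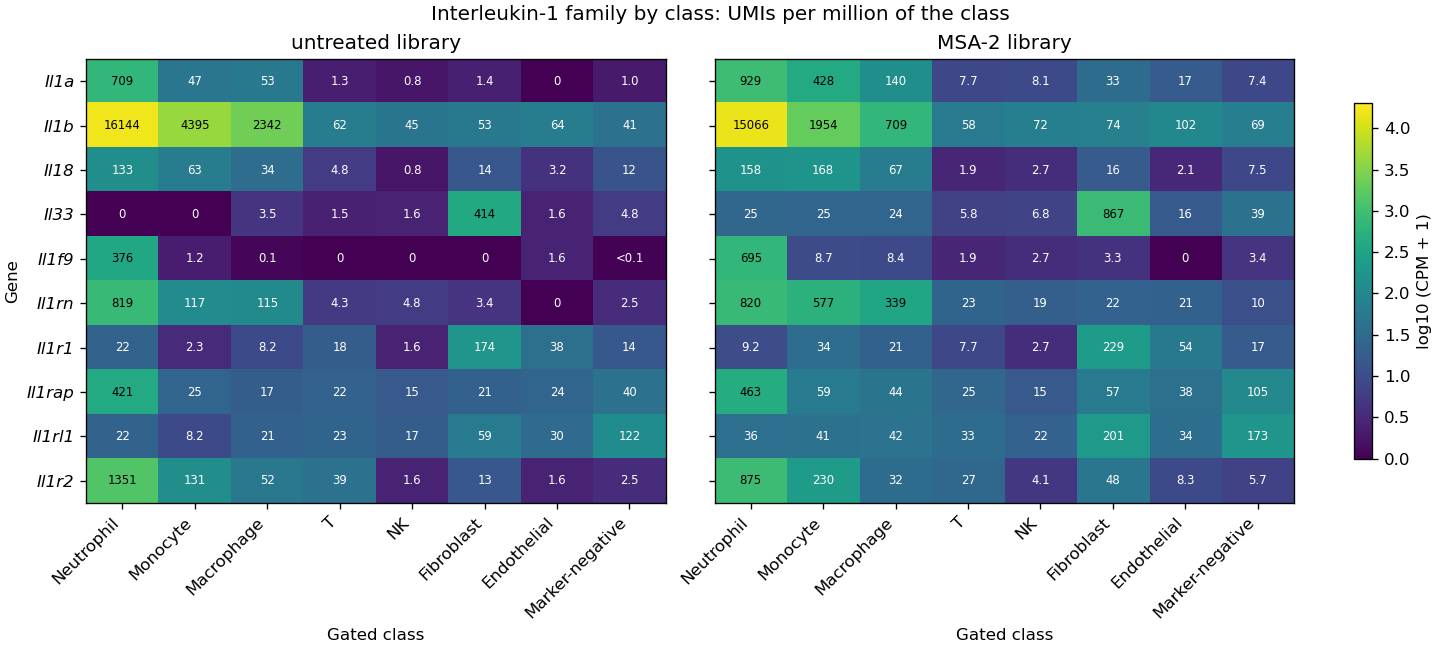
Level of each of the 10 genes (vertical axis) in 8 marker-gated classes (horizontal axis), untreated at left and MSA-2 at right; colour is log10 of CPM plus 1 and each tile prints the CPM. Il1b in neutrophils, 16144 and 15066 CPM, is the highest tile in each library, and Il33 stands out in fibroblasts at 414 and 867 CPM.

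Counts within classes differed in how far they stood from the background of all genes. In monocytes 8 of 10 members were higher past 2-fold, against 12.3% of genes, and 1 was lower, against 10.3%. In macrophages 6 of 10 were higher, against 5.27%, and 1 was lower, against 3.56%. In both classes the lower member was Il1b. In fibroblasts 7 of 10 were higher, against 5.83%, and 0 were lower, against 6.5%. In marker-negative cells 5 of 10 were higher, against 2.64%, and 0 were lower, against 1.58%. RNA of other classes was not taken out of these counts. Neutrophil RNA measured by S100a9, as set out below, would account for much of Il1f9 after MSA-2. Its share was 99.9% in monocytes, 77.6% in macrophages and 78.9% in marker-negative cells. In marker-negative cells it was 48.4% for Il1a, 31.2% for Il1rn and 1.70% for Il1rap. Fibroblast RNA measured by Col1a2 there had a share of 16.6% for Il33. With 10 CPM added 3 were higher in macrophages and 2 in marker-negative cells, and 5 in monocytes where at least 100 UMIs were required. The shares of all genes here apply to 1 CPM added and at least 20 UMIs. These lower counts thus have no share of all genes beside them. Elsewhere the counts said little about the family. Neutrophils had 1 higher, against 40.6%, and 1 lower, against 28.5%, over 35 untreated cells (Il33 and Il1r1). T cells had 1 of 7 testable members higher, against 4.98%, and 1 lower, against 11.5%. NK cells had 1 of 4 higher, against 4.92%, and 0 lower, against 6.79%. Endothelial cells had 1 of 5 higher, against 5.56%, and 0 lower, against 6.49%. In each of the last 3 classes the higher member was Il1rn, and the lower one in T cells was Il1r1.

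The middle of the gene distribution was itself shifted in some classes, with a median log2 ratio of −0.20 in monocytes, −0.11 in macrophages, −0.17 in fibroblasts, −0.14 in T cells and −0.13 in endothelial cells. Size factors differed from total UMIs by −0.35 (log2) in monocytes, −0.30 in neutrophils, −0.23 in fibroblasts, −0.17 in endothelial cells and −0.10 in macrophages. Ratios relative to the class median are therefore given for the members on which the description turns. Among the values past 2-fold, no direction changed under size factors or under mean UMIs per cell.

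**Figure D2:**
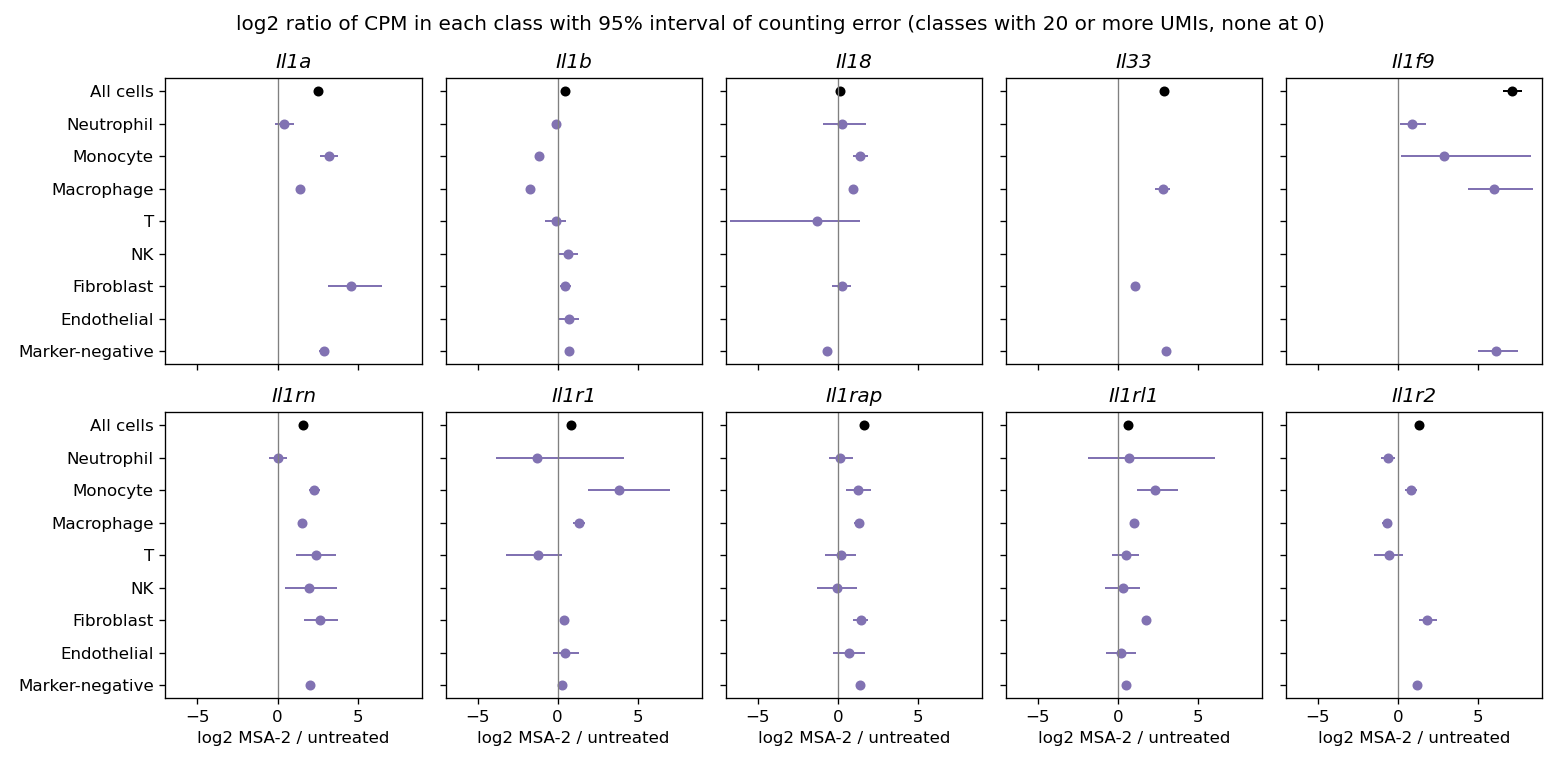
Log2 ratio of MSA-2 over untreated CPM (horizontal axis) for all cells and 8 classes (vertical axis), 1 panel per gene, with 95% intervals of counting error as bars. Il1b lies left of 0 in monocytes (−1.17) and macrophages (−1.72), where Il1a and Il1rn lie right of it.

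Il1b (ENSMUSG00000027398; chr2:129364570-129371139, minus strand, mm10) encodes the ligand IL-1 beta and had the highest CPM of the 10 genes in neutrophils, monocytes and macrophages of both libraries. Over all cells it stood at 394 CPM untreated and 551 CPM after MSA-2, a log2 ratio of 0.48 (0.47 to 0.50). That direction turned to −0.98 under the stricter cell filter, which kept 0 untreated and 300 MSA-2 neutrophils and also removed cells of other classes. With every cell weighted equally the ratio was 1.75. The all-cell direction thus depended on the cell filter, whose gene and mitochondrial limits were not varied one at a time. Macrophages held 75.7% of Il1b UMIs untreated and 4.54% after MSA-2, while neutrophils went from 1.009% to 75.6%.

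On the CPM scale Il1b differed by less than counting error between the neutrophils of both libraries and fell in the gated monocytes and macrophages. Neutrophils carried 16144 CPM (14993 to 17360) untreated and 15066 CPM (14962 to 15171) after MSA-2, a log2 ratio of −0.10 (−0.20 to 0.01). That ratio moved either way with scale and gate: it was 0.51 as mean UMIs per cell, 0.20 with size factors, 0.13 in Leiden clusters and −0.69 without the depth bound, the last an alternative chosen after seeing the data. Monocytes carried 4395 and 1954 CPM, a log2 ratio of −1.17 (−1.23 to −1.11), or −0.97 relative to the class median and −0.82 with size factors. Macrophages carried 2342 and 709 CPM, a log2 ratio of −1.72 (−1.77 to −1.68), or −1.61 relative to the median. The ordering neutrophils, monocytes, macrophages held in both libraries beyond counting error. The monocyte value depended on how the class was drawn: in clusters named by the same markers the ratio was 1.89, but that class held 4 untreated cells.

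The fall in macrophages was also seen in the share of cells that carried the message. With each cell thinned to 1000 UMIs, 60.1% of untreated and 32.7% of MSA-2 macrophages had an Il1b UMI, and unthinned 76.7% and 57.3% did. T cells, which should lack Il1b, had a UMI in 6.399% and 5.50% of cells thinned and in 17.7% and 20.7% unthinned, at median depths of 3191 and 3722 UMIs. The median macrophage held 7 Il1b UMIs untreated and 1 after MSA-2, yet the tenth of macrophages with most Il1b held 39.1% and 62.1% of the class's Il1b UMIs.

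Macrophages did not occupy the same clusters in both libraries, and the values that follow cover only part of the untreated class. The 2002 untreated cells of cluster 3, led by Ccl3 and Ccl4, were 50.1% of the class and had Il1b at 1687 CPM. After MSA-2 the 882 cells of cluster 4, led by Apoe and C1q genes, had 654 CPM and the 316 of cluster 13 had 1379 CPM. Cells outside cluster 3 also enter the untreated value of 2342 CPM. Where the same cluster held cells of each library the directions differed. In cluster 3 Il1b went from 1687 CPM to 316 CPM in 56 MSA-2 cells, and in cluster 4 it went from 362 CPM in 64 untreated cells to 654 CPM. How much of the class value reflects different kinds of macrophage and how much a different level within a kind cannot be told apart.

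Outside the myeloid classes Il1b was set beside what RNA of 1 source class would carry. If a class holds Il1b only as RNA from macrophages, its Il1b should stand to C1qa, a macrophage gene, as it does in macrophages. In the untreated library that ratio accounted for 103% of the Il1b in T cells, 103% in fibroblasts, 120% in NK cells, 116% in marker-negative cells and 88.7% in endothelial cells. In the MSA-2 library the neutrophil ratio of Il1b to S100a9 accounted for 101% in T cells, 84.2% in marker-negative cells, 81.6% in fibroblasts, 76.4% in NK cells and 73.2% in endothelial cells, where 27.4 of 102 CPM lay beyond it. Each value rests on 1 marker gene. Monocytes and macrophages differed from these, with 9.66% and 19.96% accounted for in the MSA-2 library, which left 1765 and 568 CPM of Il1b beyond it. In marker-negative cells Il1b was at 41.5 CPM untreated and 69.1 CPM after MSA-2, and the part of free RNA in that difference was not tested.

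**Figure D3:**
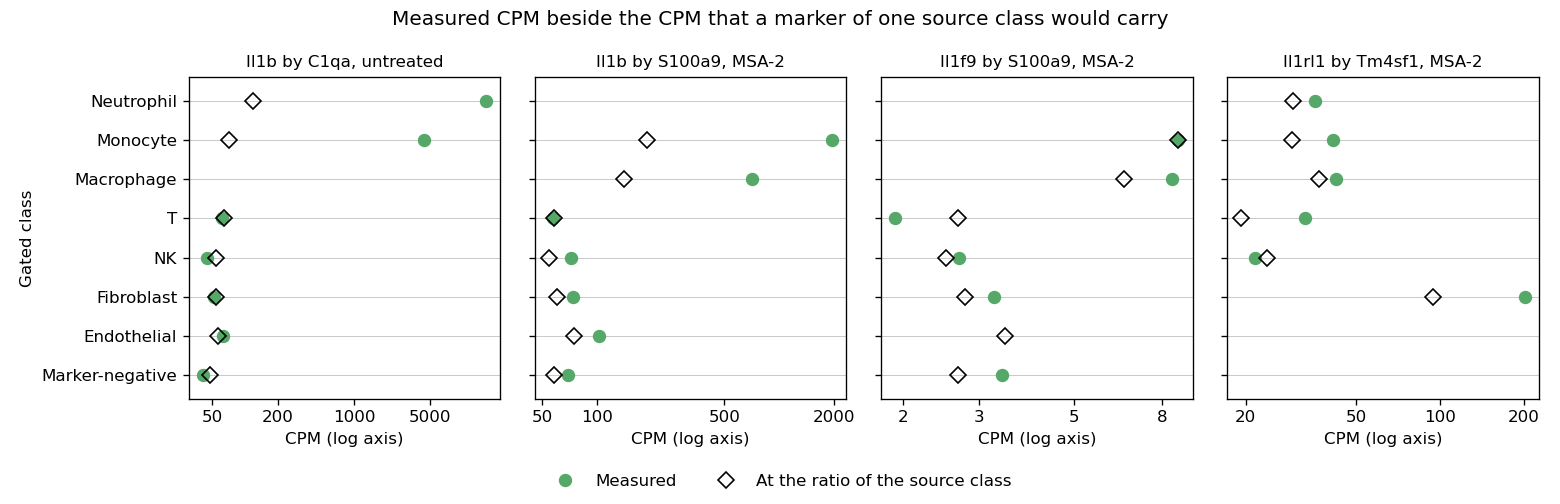
Measured CPM (filled) in each class (vertical axis) beside the CPM expected if a single source class gave all of the gene's RNA there (open), on log axes, for Il1b in each library and for Il1f9 and Il1rl1 after MSA-2. Filled and open points nearly coincide in T cells for Il1b but lie far apart in monocytes and macrophages.

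Dendritic cells were too few after MSA-2 for a comparison of most subsets. In the untreated library Il1b was at 3884 CPM in 24 cDC2 cells, at 872 CPM in 60 cDC1 cells and at 963 CPM in 77 mature regulatory dendritic cells. The last of these had 13 cells after MSA-2, with Il1b at 1142 CPM (836 to 1523), an interval that contains the untreated value. An antisense gene, Il1bos, overlaps Il1b by 1243 bases and had 29 and 126 UMIs, and as the libraries keep the strand it does not enter the Il1b counts.

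Il1rn (ENSMUSG00000026981; chr2:24336853-24351494, plus strand) encodes the IL-1 receptor antagonist, and 3′ counts do not separate its secreted and intracellular forms. Over all cells it rose from 18.4 to 55.7 CPM, a log2 ratio of 1.60 (1.55 to 1.66). Macrophages carried 115 CPM untreated and 339 CPM after MSA-2, a ratio of 1.56 (1.48 to 1.64), or 1.67 relative to the class median. Monocytes carried 117 and 577 CPM, a ratio of 2.30 (2.01 to 2.61), or 0.98 in Leiden clusters with 4 untreated cells, and neutrophils 819 and 820.3 CPM. So the antagonist rose in the classes in which Il1b fell, and in neutrophils neither moved past counting error on the CPM scale. As mean UMIs per cell the neutrophil Il1rn ratio was 0.61, and without the depth bound it was −0.59. With cells thinned to 1000 UMIs, 9.90% of untreated and 26.7% of MSA-2 macrophages had an Il1rn UMI (32.1% and 56.8% unthinned), against 0.287% and 3.67% of T cells (1.52% and 10.8% unthinned).

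Unlike Il1b, Il1rn was higher after MSA-2 in both of the macrophage clusters compared across libraries. It went from 90.4 to 137 CPM (40 UMIs) in cluster 3 and from 152 to 311 CPM in cluster 4, and the MSA-2 cells of cluster 13 had 715 CPM. Neutrophil RNA measured by S100a9 accounted for 2.27% of Il1rn in MSA-2 macrophages and 1.78% in monocytes. In mature regulatory dendritic cells Il1rn was at 65.2 CPM untreated (30 UMIs) and 422 CPM after MSA-2 (17 UMIs in 13 cells), with intervals of 44.0 to 93.1 and 246 to 676 CPM. Fibroblasts had 3.45 and 21.7 CPM and marker-negative cells 2.50 and 10.2 CPM, and in endothelial cells 0 untreated and 20 MSA-2 UMIs made it at least 4.32-fold higher.

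The number of Il1b UMIs per Il1rn UMI needs no scaling to library size. It was 20.4 untreated and 2.09 after MSA-2 in macrophages, a log2 change of −3.28 (−3.37 to −3.19). This compares different clusters. Within cluster 3 there were 20045 Il1b and 1074 Il1rn UMIs untreated and 92 and 40 after MSA-2, a fall, but within cluster 4, which held 68.1% of MSA-2 macrophages, there were 136 and 57 and then 3242 and 1543, nearly the same ratio. In monocytes it was 37.5 and 3.38, a change of −3.47 (−3.78 to −3.17), and those too lay in different clusters. In clusters named by the same markers, with 4 untreated cells, Il1b rose by more than Il1rn in monocytes (1.89 and 0.98), so the direction of this change turned. In neutrophils it was 19.7 and 18.4, a change of −0.10 (−0.62 to 0.38). In the gated classes the ratio thus fell in monocytes and macrophages, with overlapping intervals, and no shift was detectable in neutrophils at this depth. The ratio was also lower in classes where Il1b lay near what RNA of other classes would carry. The change was −2.53 (−3.83 to −1.18) in T cells, −2.16 (−3.28 to −1.20) in fibroblasts and −1.29 (−1.46 to −1.11) in marker-negative cells. In NK cells it was −1.33 (−3.09 to 0.28). Il1rn had 17 and 12 UMIs in T cells and 10 untreated UMIs in fibroblasts. In T cells, fibroblasts and marker-negative cells macrophage RNA accounted for 103%, 103% and 116% of untreated Il1b. For untreated Il1rn it accounted for 73.5%, 77.3% and 94.5%. Neutrophil RNA accounted for 101%, 81.6% and 84.2% of Il1b there after MSA-2. Whether RNA of these classes themselves changed was not tested. Over all cells the ratio went from 21.5 to 9.89, a change of −1.12 (−1.18 to −1.06), which was −1.97 under the stricter filter and −0.90 with every cell weighted equally. Il1a, the other agonist of the same receptor, stood to Il1rn at 0.463 and 0.414 in macrophages, a change of −0.16 (−0.31 to −0.01). This ratio rose by 0.89 (0.33 to 1.47) in monocytes, 0.85 (0.55 to 1.16) in marker-negative cells, 1.91 (0.09 to 4.06) in fibroblasts and 0.90 (0.80 to 0.997) over all cells. No change was detectable in neutrophils, at 0.39 (−0.34 to 1.12), T cells, at 0.18 (−2.45 to 2.71), or NK cells, at 1.36 (−2.21 to 7.11). In marker-negative cells macrophage RNA accounted for 108% of Il1a and 94.5% of Il1rn untreated. Neutrophil RNA accounted for 48.4% and 31.2% of them after MSA-2.

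**Figure D4:**
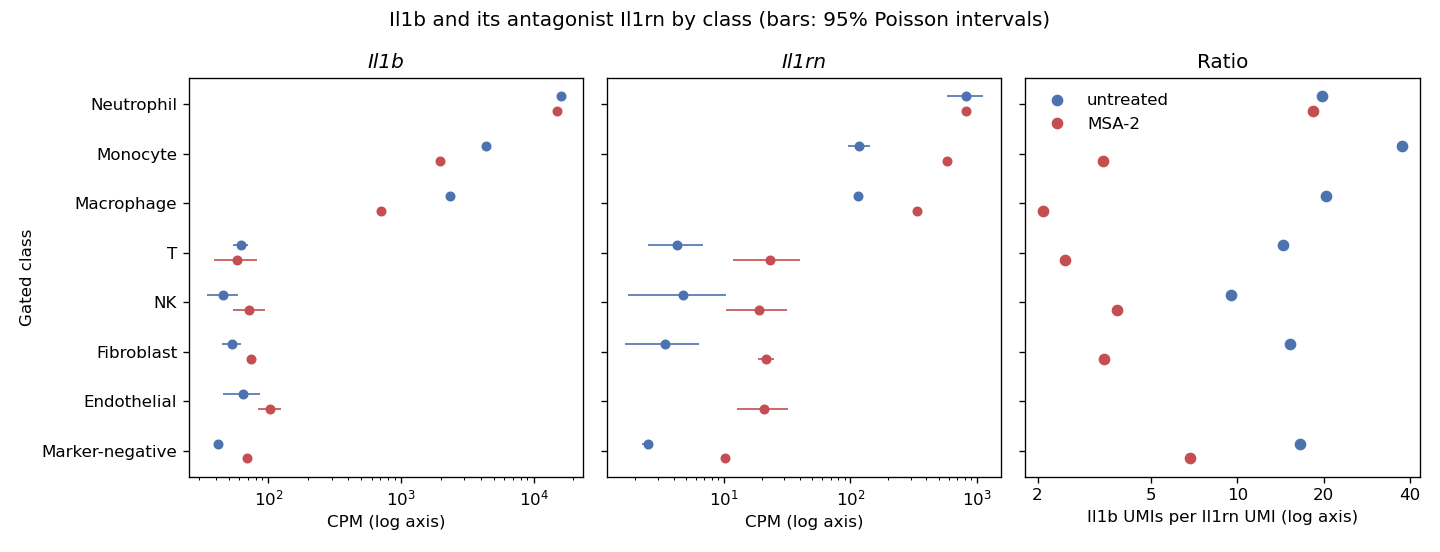
CPM of Il1b (left) and Il1rn (middle) by class with 95% Poisson intervals as bars, and Il1b UMIs per Il1rn UMI (right), all on log axes, with 1 colour per library. In macrophages, which lie in different clusters in the 2 libraries, the ratio is 20.4 untreated and 2.09 after MSA-2, while in neutrophils it is 19.7 and 18.4.

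Because over the macrophage class as a whole, though not within each of its clusters, Il1b and Il1rn moved in opposite directions and Il1a moved with Il1rn, the 250 bases upstream of an annotated start of each are shown, 5′ to 3′ on the strand of the gene (GRCm38.p6, RefSeq). They are chr2:129371140-129371389 for Il1b, chr2:24345041-24345290 for Il1rn, which has 3 such windows, and chr2:129309973-129310222 for Il1a. Capitals mark matches to TTGNGNAA, a motif of C/EBP factors, and to TGANTCA, a motif of AP-1, searched on both strands, where the AP-1 letters read alike on each.
Il1b: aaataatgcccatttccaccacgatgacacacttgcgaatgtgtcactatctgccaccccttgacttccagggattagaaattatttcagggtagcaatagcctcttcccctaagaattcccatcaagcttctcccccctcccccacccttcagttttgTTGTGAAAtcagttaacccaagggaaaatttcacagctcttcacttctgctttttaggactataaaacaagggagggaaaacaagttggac
Il1rn: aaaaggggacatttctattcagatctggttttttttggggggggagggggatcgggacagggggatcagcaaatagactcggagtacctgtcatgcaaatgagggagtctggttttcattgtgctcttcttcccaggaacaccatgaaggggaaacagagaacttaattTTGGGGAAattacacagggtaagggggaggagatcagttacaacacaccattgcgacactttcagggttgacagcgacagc
Il1a: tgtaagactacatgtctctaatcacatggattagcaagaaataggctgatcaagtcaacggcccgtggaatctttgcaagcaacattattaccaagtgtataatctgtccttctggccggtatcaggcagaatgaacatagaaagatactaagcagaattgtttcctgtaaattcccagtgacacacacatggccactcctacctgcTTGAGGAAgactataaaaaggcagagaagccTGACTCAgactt
The C/EBP letters TTGTGAAA lie 91 to 84 bases upstream of the Il1b start, TTGGGGAA 81 to 74 bases upstream of the Il1rn start and TTGAGGAA 43 to 36 bases upstream of the Il1a start. TGACTCA lies 12 to 6 bases upstream of the Il1a start, and another Il1rn window, chr2:24336610-24336859, holds TGAGTCA. Of 32851 windows of this length over all genes 11.7% hold TTGNGNAA and 6.75% hold TGANTCA, and of the 15 windows of the 10 members 4 and 2 do. A pair of the 4 are overlapping Il1rn windows that hold the same TTGGGGAA, so the C/EBP letters lie at 3 distinct places, 1 in each of 3 members. A motif of NF-kB, given by name, was found in 1 member window, of Il1r1, and in 7.25% of all windows. AGGAAGT (PU.1) and GAAANNGAA (interferon-response factors) were in 0 of the 15 member windows and in 7.69% and 7.13% of all. A match describes letters only and was not tested as a site.

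The change in the all-cell level of each gene can be divided into a part from the share of UMIs that each class contributes, at mean levels, and a part from levels within classes, at mean shares. For Il1b the difference of 157 CPM was the sum of 325 CPM from class shares and −168 CPM within classes. The neutrophil share alone gave 428 CPM and the change within macrophages −133 CPM. Il1rn divided the other way, with 4.90 CPM from shares and 32.5 CPM within classes. The decoy Il1r2 resembled Il1b, with 28.7 and −6.49 CPM. Il1a had 17.1 CPM from shares and 21.7 CPM within classes. For Il33 the parts were 21.1 and 49.8 CPM, for Il1rap 15.7 and 58.2 CPM, and for Il1rl1 9.56 and 49.7 CPM, so these rose mostly within classes.

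**Figure D5:**
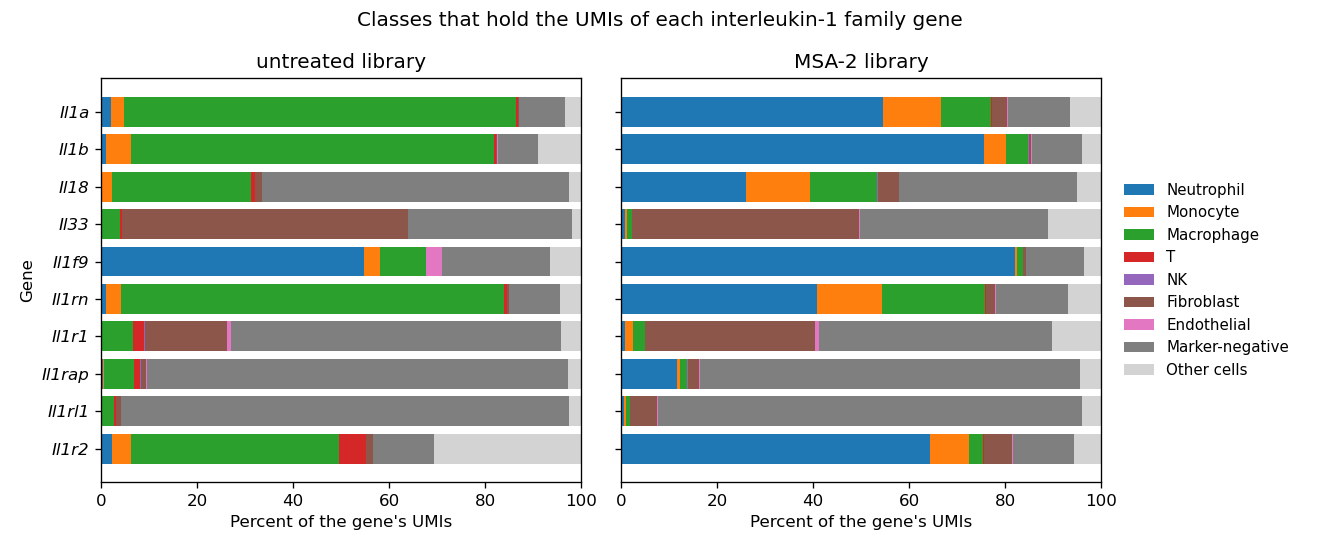
Percent of the UMIs of each gene (horizontal axis) held by each class, untreated at left and MSA-2 at right. For Il1b the macrophage bar of 75.7% untreated gives way to a neutrophil bar of 75.6% after MSA-2, while Il1rl1 stays with marker-negative cells at 93.3% and 88.3%.

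Il1a (ENSMUSG00000027399; chr2:129299610-129309972, minus strand) encodes IL-1 alpha, an agonist that is active without processing and is released from damaged cells. Over all cells it rose from 8.31 to 47.0 CPM, a log2 ratio of 2.50 (2.42 to 2.58), which was 1.62 under the stricter cell filter and 3.61 with every cell weighted equally. Monocytes carried 46.9 and 428 CPM, a ratio of 3.19 (2.73 to 3.68), and macrophages 53.3 and 140 CPM, a ratio of 1.40 (1.27 to 1.52). In Leiden clusters the ratios were 0.47 in monocytes, with 4 untreated cells, and 0.89 in macrophages. Neutrophils carried the most in both libraries, 709 and 929 CPM, with an interval of the log2 ratio from −0.11 to 0.94. By class, Il1a thus rose where Il1b fell, but not in each macrophage cluster: in cluster 3 it went from 26.6 CPM to 13.7 CPM (4 UMIs) and in cluster 4 from 79.9 CPM (30 UMIs) to 103.5 CPM. Macrophages held 81.7% of its UMIs untreated and neutrophils 54.6% after MSA-2. With cells thinned to 1000 UMIs 4.27% of untreated and 25.7% of MSA-2 monocytes had an Il1a UMI (8.86% and 43.5% unthinned), against 0.0955% and 0.917% of T cells (0.474% and 3.60% unthinned). Among MSA-2 macrophages, cluster 13 had the most, 437 CPM. Fibroblasts had 4 UMIs untreated and 280 after MSA-2, 1.38 and 32.6 CPM, and neutrophil RNA accounted for 11.4% of the MSA-2 value.

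Il18 (ENSMUSG00000039217; chr9:50554827-50581840, plus strand) encodes a ligand that drives interferon gamma production and uses its own receptor pair. Its all-cell log2 ratio was 0.17 (0.10 to 0.25), but −0.17 under the stricter cell filter and 1.48 with every cell weighted equally. Monocytes rose from 63.3 to 168 CPM, a ratio of 1.40 (0.99 to 1.84). Macrophages went from 33.8 to 66.6 CPM, a ratio of 0.98, or 1.09 relative to the class median. Marker-negative cells went the other way, from 11.99 to 7.45 CPM, a ratio of −0.69 (−0.79 to −0.58), and these cells held 63.9% of Il18 UMIs untreated and 37.0% after MSA-2. Neutrophils had 133 and 158 CPM with 6 untreated UMIs.

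Il1f9 (ENSMUSG00000044103; chr2:24186476-24193568, plus strand) encodes IL-36 gamma, known from inflamed skin and from neutrophil-rich tissue. It had 31 UMIs in the whole untreated library and 4496 after MSA-2, 0.169 and 23.4 CPM, the highest all-cell ratio of the 10 genes at 7.11 (6.61 to 7.67). Within neutrophils it was at 376 and 695 CPM, a ratio of 0.88 (0.20 to 1.67) from 17 untreated UMIs, and 0.29 without the depth bound. The all-cell rise divided into 14.99 CPM from class shares and 8.27 CPM within classes, and neutrophils held 82.0% of Il1f9 UMIs after MSA-2. With cells thinned to 1000 UMIs 43.3% of MSA-2 neutrophils had an Il1f9 UMI, against 0% of T cells, which allows up to 3.33% (58.7% and 0.901% unthinned). In other classes its MSA-2 level was near that of neutrophil RNA, which accounted for 99.9% of the 8.71 CPM in monocytes, 77.6% of the 8.41 CPM in macrophages and 78.9% of the 3.40 CPM in marker-negative cells. These shares rest on S100a9 alone and take all S100a9 in those classes as neutrophil RNA, which was not tested. In MSA-2 endothelial cells the same ratio gives 3.46 CPM, where Il1f9 had 0 UMIs. In fibroblasts 0 untreated and 28 MSA-2 UMIs made it at least 3.15-fold higher, of which neutrophil RNA accounted for 85.6%.

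Il33 (ENSMUSG00000024810; chr19:29925114-29960718, plus strand) encodes a nuclear alarmin and was a fibroblast gene in both libraries. Fibroblasts carried 414 CPM (391 to 438) untreated and 867 CPM (847 to 887) after MSA-2, a log2 ratio of 1.07 (0.98 to 1.16), or 1.24 relative to the class median. This is close to 2-fold, and the ratio fell below it with every cell weighted equally (0.98), in Leiden clusters (0.77) and, barely, with the wider gate margin (0.995). With cells thinned to 1000 UMIs 29.9% and 49.0% of fibroblasts had an Il33 UMI, and unthinned 75.1% and 91.3%, at median depths of 12167 and 13296.5 UMIs. T cells, which should lack it, had 0.191% and 0% (up to 3.33%) thinned and 0.569% and 2.70% unthinned. Their level after MSA-2 equalled 5.77 CPM, from 3 UMIs. Fibroblast RNA measured by Col1a2 (22 UMIs) accounted for 105% of it, a share that rests on too few counts to be precise. Fibroblasts lay in different clusters in the libraries, at 481 CPM in the 190 untreated cells of cluster 11 and at 879 CPM in the 564 MSA-2 cells of cluster 14.

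Marker-negative cells also gained Il33, from 4.77 to 38.7 CPM, a log2 ratio of 3.02 (2.91 to 3.14), and Col1a2 accounted for 16.6% of the MSA-2 value. In cluster 18 of these cells it was at 51.2 CPM, in cluster 17 at 45.1 CPM and in cluster 16 at 23.3 CPM. The untreated clusters ranged from 1.79 CPM in cluster 0 to 9.45 CPM in cluster 1, so each of the 3 large MSA-2 clusters was above them. Over all cells Il33 rose from 2017 UMIs to 15721 UMIs (81.9 CPM), a ratio of 2.90. Macrophages had 3.47 and 24.2 CPM, and fibroblast RNA accounted for 53.0% of the latter. Monocytes had 0 untreated and 62 MSA-2 UMIs, at least 6.98-fold higher, with 31.0% of the MSA-2 level accounted for in the same way. In neutrophils 133 MSA-2 UMIs stood against 0 among 45156 untreated UMIs, too few for a difference to be detectable at this depth.

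Il1r1 (ENSMUSG00000026072; chr1:40225080-40317257, plus strand), the signaling receptor of IL-1 alpha and IL-1 beta, was highest in stromal cells. Fibroblasts carried 174 CPM (160 to 190) untreated and 229 CPM (219 to 239) after MSA-2, a log2 ratio of 0.39 (0.25 to 0.54). That ratio was 0.08 in Leiden clusters, 0.61 as mean UMIs per cell and 0.62 with size factors. The 19 untreated and 15 MSA-2 pericytes had 275 CPM (192 to 383) and 230.4 CPM (155 to 329), above fibroblasts beyond counting error in the untreated library alone. Endothelial cells were at 38.3 and 53.8 CPM with overlapping intervals, and marker-negative cells had 14.0 and 16.9 CPM. Neutrophils had 1 and 49 UMIs of Il1r1, or 22.1 and 9.24 CPM, and the log2 ratio of −1.26 has an interval from −3.81 to 4.07. Without the depth bound on neutrophils it was 0.38. Monocytes rose from 2.34 CPM (2 UMIs) to 34.1 CPM (86 UMIs), a ratio of 3.86 (1.96 to 6.93) that was 2.31 with doublets kept, and macrophages from 8.18 to 20.5 CPM, a ratio of 1.33. The T cell class went from 17.9 CPM to 7.69 CPM (4 UMIs), with an interval of the log2 ratio from −3.13 to 0.20. Among T cells, those with neither Foxp3, Cd8 nor Cd4 UMIs had 81.7 CPM untreated (57 UMIs) and 1 UMI after MSA-2, where 32 such cells remained.

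Il1r2 (ENSMUSG00000026073; chr1:40074079-40125231, plus strand) encodes the decoy receptor and was, unlike Il1r1, highest in neutrophils in both libraries. Neutrophils carried 1351 CPM (1033 to 1735) untreated and 875 CPM (850.1 to 901) after MSA-2, a log2 ratio of −0.63 (−0.99 to −0.24). Monocytes carried 131 and 230.1 CPM, a ratio of 0.81 (0.52 to 1.11), or 1.01 relative to the class median, and macrophages 52.5 and 32.3 CPM, a ratio of −0.70 (−0.91 to −0.49). The macrophage clusters with cells of each library went the other way. Il1r2 went from 21.6 to 34.3 CPM (10 UMIs) in cluster 3 and from 13.3 CPM (5 UMIs) to 32.3 CPM in cluster 4. The 33 untreated cells of cluster 10 had 870 CPM, with 170 of the 1226 untreated UMIs of the class. These values leave out the untreated cells of cluster 5, so they do not show which cells carried the class value. On the CPM scale the decoy thus stayed within 2-fold in each gated myeloid class, though in neutrophils the ratio was −0.02 as mean UMIs per cell and −1.20 without the depth bound, and in monocytes 1.16 with size factors. Its all-cell rise from 15.4 to 37.6 CPM (log2 ratio 1.29) came with the neutrophils, which held 64.4% of its UMIs after MSA-2. In the untreated library it was also carried by cDC2 cells at 555 CPM (93 UMIs in 24 cells), by CD4 T cells at 104.6 CPM and by Foxp3+ T cells at 96.9 CPM (35 UMIs in 73 cells). Fibroblasts rose from 13.4 to 48.5 CPM, a ratio of 1.85 (1.37 to 2.36). Decoy UMIs per receptor UMI were 6.42 and 1.58 in macrophages, a log2 change of −2.03 (−2.41 to −1.63), and 0.0771 and 0.212 in fibroblasts, a change of 1.46 (0.96 to 1.99). In monocytes they were 56.0 and 6.76, a change of −3.05 (−6.14 to −1.11), and in marker-negative cells 0.177 and 0.339, a change of 0.94 (0.74 to 1.13). In marker-negative cells Il1r2 was at 2.49 and 5.74 CPM. Macrophage RNA measured by C1qa accounted for 43.2% of the untreated value. Neutrophil RNA measured by S100a9 accounted for 58.8% of the MSA-2 value, against 7.26% in fibroblasts. Its part in the change was not tested. The macrophage change compares different clusters. Within cluster 3 there were 257 decoy and 59 receptor UMIs untreated and 10 and 2 after MSA-2, and within cluster 4 there were 5 and 4 and then 160 and 92, so the ratio did not fall within either.

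Il1rap (ENSMUSG00000022514; chr16:26581704-26730117, plus strand) encodes the co-receptor shared by Il1r1 and Il1rl1, and its membrane and soluble forms are not separated by these counts. Neutrophils carried the most, 421 and 463 CPM, with a log2 ratio of 0.14 (−0.51 to 0.87). Marker-negative cells rose from 39.9 to 104.8 CPM, a ratio of 1.39 (1.35 to 1.44), and held 87.7% and 79.2% of its UMIs. Within them the level varied among clusters, from 27.6 to 61.0 CPM in the 3 large untreated clusters and from 57.2 to 177 CPM in the 3 MSA-2 ones. The rise was thus uneven, with cluster 18 at 177 CPM and cluster 16 at 57.2 CPM, below cluster 0 of the untreated library. Fibroblasts had 21.03 and 56.9 CPM, of which RNA of marker-negative cells would account for 76.8% and 100.1% if all Tm4sf1 in fibroblasts came from them. Tm4sf1 is not particular to those cells: endothelial cells carried it at 1089 and 1178 CPM, above 638 and 551 CPM in marker-negative cells, and for endothelial Il1rap the same calculation gives 285% and 585%. Macrophages had 17.5 and 43.5 CPM, a ratio of 1.32 (1.10 to 1.54), with 32.8% and 51.1% accounted for on the same condition.

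Il1rl1 (ENSMUSG00000026069; chr1:40429570-40465415, plus strand) encodes ST2, the receptor of IL-33, and its soluble form, itself a decoy, is not separated from the membrane form here. Marker-negative cells held 93.3% and 88.3% of its UMIs and carried 122 CPM untreated and 173 CPM after MSA-2, a log2 ratio of 0.50 (0.47 to 0.53). Fibroblasts rose from 58.6 to 201 CPM, a ratio of 1.78 (1.55 to 2.02), or 1.96 relative to the class median and 2.48 in Leiden clusters. Of the 170 untreated UMIs of the class 92 lay in 29 cells of cluster 1, at 190 CPM, while the 190 cells of cluster 11 were at 32.9 CPM. If all Tm4sf1 in fibroblasts came from marker-negative cells, their RNA accounted for 84.5% of the untreated value and for 46.7% of the MSA-2 value, which left 107 CPM beyond it. So the fibroblast class gained messages of both IL-33 and its receptor. With cells thinned to 1000 UMIs 4.46% and 11.6% of fibroblasts had an Il1rl1 UMI, and unthinned 28.9% and 44.8%, against 1.79% and 1.94% thinned and 8.85% and 14.4% unthinned in NK cells, whose median depths were 5084.5 and 6092 UMIs.

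In leukocytes Il1rl1 was set beside RNA of marker-negative cells on the same condition. That RNA accounted for 84.7% of the 20.7 CPM in untreated macrophages and 87.0% of the 42.2 CPM after MSA-2, and for 71.3% of the 41.2 CPM in MSA-2 monocytes. In clusters named by the same markers the monocyte log2 ratio, 2.33 in the gated class, was −2.13, again with 4 untreated cells. Mast cells, long known to carry ST2, had the highest level, 495 CPM (323 to 725) in 17 untreated cells and 352 CPM (232 to 513) in 16 MSA-2 cells. ILC2-like cells had 202 CPM from 8 UMIs in 15 untreated cells. The intervals of the mast cell values overlap, so no difference was detectable at this depth.

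Genes that serve the same pathway were counted from lists over all cells. Of 14 genes known to respond to IL-1 signaling, among other signals, 8 were higher past 2-fold and 0 lower, against 2.98% and 2.94% of all genes, and the median log2 ratio was 1.27 against 0.01 over all genes. Lcn2, an antimicrobial iron-binding protein, went from 2.08 to 212 CPM (6.67) and Cxcl5, a neutrophil attractant, from 0.704 to 61.5 CPM (6.45). Of 10 relay genes 1 was higher, Irak3, at 6.99 and 17.4 CPM (1.32), a brake on the pathway, and the median was 0.13. Of 8 genes of ligand processing 1 was higher, Casp4, at 39.97 and 96.9 CPM (1.28), and 1 lower, Pycard, the inflammasome adaptor, at 58.5 and 28.0 CPM (−1.06). Casp1, which cleaves IL-1 beta and IL-18, was at 54.0 and 30.7 CPM (−0.81). So 8 of 14 response genes, 1 of 10 relay genes and 1 of 8 processing genes were higher, each beside 2.98% of all genes. As the lists were chosen with earlier results of these data known, the counts are a description only.

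Of 7 other receptors and binding proteins 0 were higher and 1 lower, Il18r1, the receptor of IL-18, at 8.22 and 2.23 CPM (−1.88), beside the fall of T cells from 1055 to 111. Without the added 1 CPM, the scale on which single ratios are given, Il1rl2, the receptor of IL-36, at 1.40 and 3.42 CPM, had a log2 ratio of 1.29 (1.08 to 1.502), and Il1rapl2, at 0.322 and 0.704 CPM, had 1.13 (0.68 to 1.60). Of 4 other ligands of the family Il1f6 alone could be tested and 0 were higher or lower. It had 1 UMI untreated and 105 after MSA-2, a log2 ratio of 6.65 (4.14 to 11.97), which was 0.62 with the added 1 CPM. Within macrophages, where Il1b fell, 9 of 13 testable response genes were higher and 1 lower, Zc3h12a, a nuclease that degrades inflammatory messages, at 109 and 53.1 CPM (−1.03). Among all genes in macrophages 5.27% were higher and 3.56% lower, and the median of the response genes was 1.49, against −0.11. RNA of other classes was not taken out of these counts. After MSA-2, Lcn2 was at 75.7 CPM in macrophages beside 2890.5 CPM in neutrophils, whereas Tnfaip3 was at 825 CPM beside 676 CPM. No share of all genes is given with 10 CPM added. At that setting no gene of the lists was lower past 2-fold, in macrophages (0 rather than 1) or over all cells (0 rather than 2). None of the relay or processing genes passed 2-fold in macrophages (0 of 10 and 0 of 8).

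Over the 16 sums of 8 classes in 2 libraries, the genes whose log2 levels ran most nearly parallel were sought among 6569 genes, as a description, since the points share libraries and free RNA. For Il1b the nearest were Ccr1 (Pearson r 0.991), Cyp4f18, Pilra, Nlrp3 and Cd14, all known from myeloid cells. For Il1rn they were Clec4d (0.985), Cd300lf, Il1a, Nlrp3 and Acod1. Il1a was thus the member nearest to the antagonist. For Il1r2 they were Pygl (0.952), Trem1, Trem3 and Antxr2, and for Il33 Egfr (0.976), Mmp3, Rarres2, Loxl2 and Prg4. For Il1rl1 they were Sdk1 (0.942), Steap2, Slc4a4, Igf2bp2 and Steap1.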

How the data were processed

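The authors deposited a UMI count for every gene and barcode of each library, without normalization. Per the labels these were made with Cell Ranger 7.0.0 on mm10. Cells needed 500 genes or more and 20% mitochondrial UMIs or less, and Scrublet (scanpy 1.11.5, 0.8% expected per 1000 barcodes) removed 5.02% of untreated and 4.08% of MSA-2 barcodes as doublets. Cells took the class with the highest mean marker score, at least 0.75 (fibroblasts 1.5) and 0.25 above the next. These thresholds were chosen after the scores had been seen, and members and lists with earlier results of these data known. UMIs were summed per class (Python 3.11.15; pandas 2.3.3, numpy 2.4.6), intervals came from scipy 1.17.1 and plots from matplotlib 3.10.9. Intervals are exact: Poisson for levels, Clopper-Pearson for shares and conditional binomial for ratios. Genes with at least 20 UMIs were tested for 2-fold change, a count of 0 was taken as up to 3 counts, and 235 untreated and 300 MSA-2 cells below 1000 UMIs were left out of thinned shares. All 10 members were described; other genes were named from the lists where they had at least 50 UMIs, the 3 highest and 3 lowest first, with Irak3, Casp4, Zc3h12a, Il1rl2 and Il1rapl2 added after their values were seen, or as the 5 nearest by correlation over genes with at least 50 CPM. The script that forms ratios was checked on simulated counts. Untreated macrophages of cluster 5 and the fifth gene nearest to Il1r2 are not reported here. Alternatives covered cell filter, doublets, scaling, weighting, clusters, gate margin, low-count filter and added CPM.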

Additional observations from a re-analysis of the deposited data

How the results depend on the processing

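No paired analysis was possible because each group has 1 sample. Over all cells the Il1b log2 ratio, 0.48, was −0.98 with the stricter cell filter (1000 genes, 10% mitochondrial UMIs), 0.53 with every deposited barcode, 0.54 as mean UMIs per cell and 1.75 with every cell weighted equally. In macrophages the Il1b ratio, −1.72, was −1.63 with doublets kept, −1.88 per cell, −1.62 with size factors, −1.64 with equal weights and −1.94 in Leiden clusters. The Il1rn ratio there, 1.56, was 1.40 per cell, 1.66 with size factors, 1.81 with equal weights and 1.34 in Leiden clusters. The change in Il1b per Il1rn over all cells, −1.12, was −1.97 with the stricter filter and −0.90 with equal weights. With 10 CPM added, 3 rather than 6 members were higher in macrophages, where the 5.27% of all genes applies to 1 CPM added only. Leiden clusters turned Il1b (1.89) and Il1rl1 (−2.13) in monocytes, with 4 untreated cells, and an unbounded neutrophil gate, an alternative chosen after seeing the data, turned Il1r1 (0.38), Il1a (−0.20), Il18 (−0.30), Il1rn (−0.59) and Il1rap (−0.20) and kept 4 of 9 directions. Beyond the values named, the causes were not tested.

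Of 72 member ratios, 71 kept their direction with size factors, 69 per cell, 69 with equal weights, 68 with doublets kept and 72 without shared barcodes, which was also chosen after seeing the data. With the wider gate margin 59 of 61 did, with the stricter filter 61 of 63 and in Leiden clusters 50 of 57. Of ratios past 2-fold all 39 kept it under each of the first 5, and 27 of 29 in Leiden clusters. Past 2-fold remained 37 of 39 with size factors, 35 per cell, 36 with equal weights, 38 with doublets kept, 36 of 38 with the stricter filter, 31 of 32 with the wider margin and 21 of 29 in Leiden clusters. The neutrophil comparison is limited by depth, with 45156 UMIs in 35 untreated cells, and by the gate, and pools of 3 mice per library give no spread between animals.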
